A study of Homo sapiens with 9 samples.

Results

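The genes described here are 10 out of 58735 genes listed, of which 19951 are protein-coding. EGR1, EGR2 and EGR3 are early growth response (EGR) genes, and IER2, IER3, IER5 and IER5L are immediate early response (IER) genes. CSRNP1, NR4A1 and SRF are described with them. The 10 genes were taken by name, and were picked because EGR1 showed the largest rise at 1 μM of YK-4-279. Their values at that dose are therefore given as a description, with no test. KHM-5M, an established human thyroid cancer cell line, was kept for 24 h with DMSO, the solvent control, or with YK-4-279 at 0.3 μM or 1 μM, with 3 samples in each group, and polyadenylated RNA was sequenced. YK-4-279 is a small molecule used as an inhibitor of ETS transcription factors. All samples come from 1 cell line and 1 time point. The study states that this line carries a BRAF mutation, which activates the ERK pathway, and a TERT promoter mutation. The part of these mutations in the results was not tested. The labels do not say whether the 3 samples of a group were separate cultures, and the methods state fewer biological replicates per condition than the labels list, so that p-values measure the spread between these samples, which may be technical.

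Immediate early genes are transcribed soon after a stimulus such as a growth factor, without the need for new protein, and their mRNAs are usually short-lived. In the best known route, the ERK kinase cascade activates ELK-type ETS proteins, which sit with serum response factor (SRF) on a CArG box, the DNA site of SRF, in promoters such as that of EGR1. EGR proteins are zinc finger transcription factors that bind GC-rich sites and are held back by the co-repressors NAB1 and NAB2, and the nuclear receptor NR4A1, the nuclear protein CSRNP1 and the IER proteins are products of the same kind of early transcription.

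The 9 samples held 16903251 to 18238884 counts, and a count of 0 allows a level of at most 0.164 to 0.177 CPM (counts scaled to library size), the worth of 3 counts, by counting error alone. Of 11 thyroid markers, 2 were at or above 1 FPKM (fragments scaled by gene length and library size) in all 9 samples, PAX8 at 21.6 to 27.7 FPKM and HHEX at 5.12 to 7.49 FPKM. Thyroglobulin (TG) did not exceed 4 counts, and the sodium iodide symporter (SLC5A5) was at 0 in 8 of the 9 samples. The summed level of the 11 thyroid markers was 29.1 to 31.0 FPKM in DMSO, 28.8 to 33.3 FPKM at 0.3 μM and 28.8 to 30.4 FPKM at 1 μM. Keratins KRT8 and KRT18 and vimentin (VIM) were abundant, with KRT8 at 182.7 to 204.3 FPKM and VIM at 440.6 to 487.9 FPKM, whereas E-cadherin (CDH1) did not exceed 0.0467 FPKM. The summed level of 6 mesenchymal markers was 725.2 to 759.6 FPKM in DMSO, 752.5 to 828.2 FPKM at 0.3 μM and 774.6 to 859.1 FPKM at 1 μM, and of 6 epithelial markers 346.7 to 348.3, 332.1 to 362.5 and 341.2 to 359.8 FPKM. At 1 μM fibronectin (FN1) was higher by 0.30 ± 0.08 on the log2 scale (edgeR adjusted p = 0.0183) and collagen COL1A1 lower, at -0.41 ± 0.10 on the log2 scale (edgeR adjusted p = 0.0132), both under 1.5-fold, and their part in the results was not tested. Of 4 leukocyte markers, PTPRC, CD3E and LYZ were at 0 to 2 counts, and CD14 had 8 to 37 counts. The summed level of the 4 was 0.234 to 0.663 FPKM in DMSO, 0.242 to 0.645 FPKM at 0.3 μM and 0.919 to 1.13 FPKM at 1 μM, where CD14 was higher by 1.07 ± 0.35 on the log2 scale (edgeR adjusted p = 0.0484), and its part in the results at 1 μM was not tested.

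In DMSO, the 10 genes spanned the range from abundant to undetected, as read from the length-scaled FPKM. IER3 had the highest level, 60.3 FPKM ± 6.90 (SD, n = 3), above 95.4% of 12900 protein-coding genes tested at 1 μM. SRF followed at 22.1 ± 2.23 FPKM and IER5 at 15.5 ± 1.82 FPKM, and neither group of values overlapped its neighbour. IER5L at 9.60 ± 1.48 FPKM and IER2 at 8.06 ± 0.771 FPKM overlapped each other. CSRNP1 at 4.04 ± 0.0236 FPKM and NR4A1 at 2.10 ± 0.187 FPKM came next. Their order depends on the deposited gene length that FPKM divides by. That length is 7295 bases for NR4A1 against 2485 in its GENCODE canonical transcript, and 3214 against 3164 for CSRNP1. The order of IER5L and IER2 depends on it too, with 3072 against 2110 for IER2 and 2711 against 2710 for IER5L. By CPM, NR4A1 at 15.5 lay above CSRNP1 at 13.1 in DMSO. The EGR genes were lowest, with EGR1 at 0.138 ± 0.105 FPKM, above 2.03% of the protein-coding genes tested, and EGR2 at 0.0102 ± 0.00884 FPKM, and EGR3 was listed at 0 in all DMSO samples.

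At 1 μM, EGR1 was 3.09 ± 0.39 (log2 fold change ± SE, n = 3 and 3) above DMSO, or 8.54-fold, IER3 was 0.93 ± 0.08 above and CSRNP1 0.68 ± 0.09 above, while IER5, IER5L, IER2, NR4A1 and SRF were 0.16 to 0.28 above. These values and their SEs come from edgeR fits to the counts, with no test for the 10 genes. The count filter was passed by 8 of the 10 genes, and not by EGR2 and EGR3. In 8 of the 10, EGR2 included, the 3 samples at 1 μM were all above the 3 DMSO samples in CPM, and EGR3 and SRF overlapped. Since the genes were picked on this comparison, nothing is read from that count; groups were apart in that direction in 21.8% of the protein-coding genes tested. EGR1, IER3 and CSRNP1 were over 1.5-fold higher, as were 2.76% of the protein-coding genes tested. Next in size after EGR1 among those genes were CCL20 at 2.72, PTGS2 at 2.70 and NR4A3 at 2.53 on the log2 scale.

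**Figure D1:**
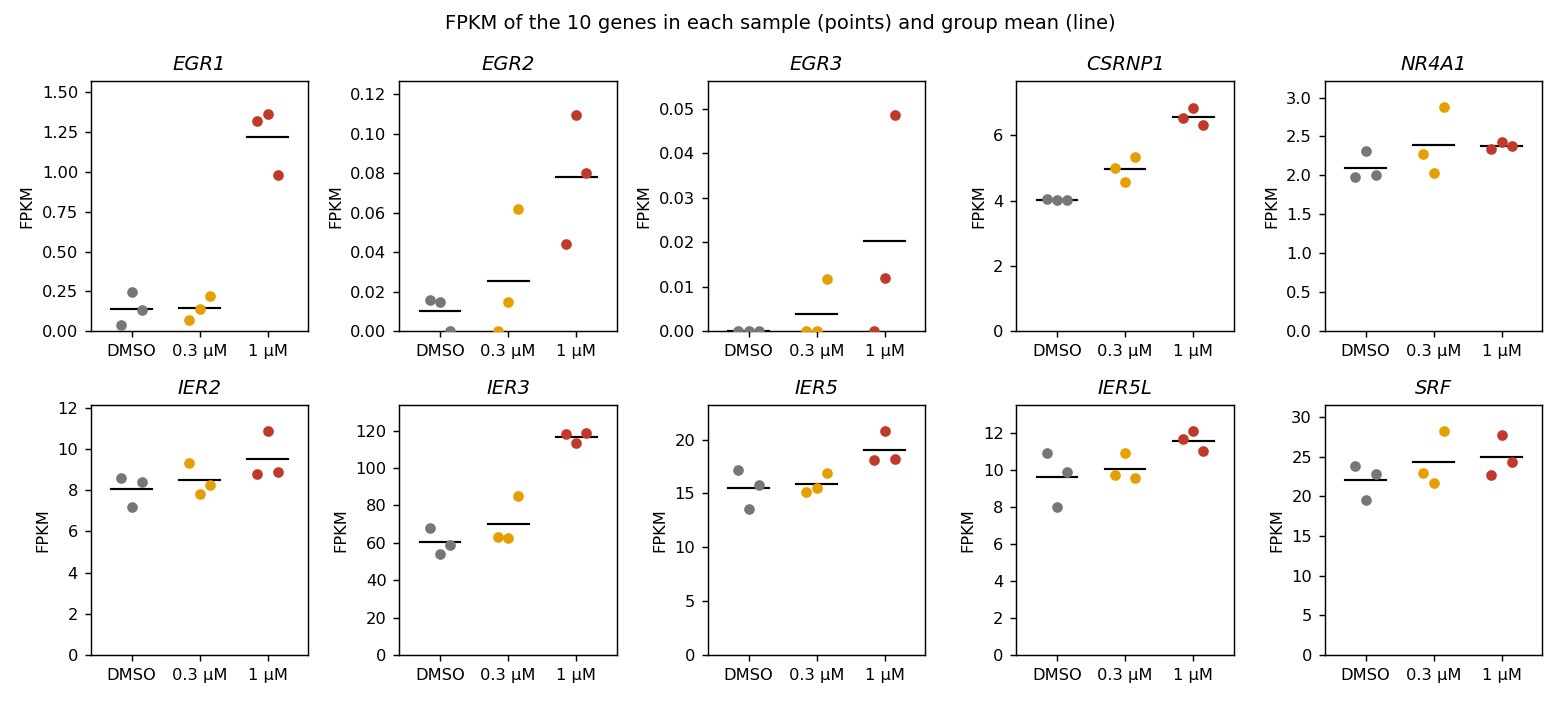
FPKM (y axis, linear from 0, a scale of its own in each panel) of the 10 genes in the 9 samples, by treatment (x axis). Points are samples and lines are means of 3; EGR1 at 1 μM lay between 0.979 and 1.36 FPKM, above every DMSO and 0.3 μM sample, whereas the SRF groups overlapped.

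The promoter windows of EGR1 and SRF are shown because both carry paired SRF sites, whose part in the results was not tested. Windows run from 250 bases before to 50 bases after the transcription start, were taken from RefSeq (GRCh38.p14) and were found for 8 of the 10 genes. Only the first listed start of each gene was used, and any other starts or more distant sequence were not searched. The EGR1 window lies at chr5:138465229-138465528 and the SRF window at chr6:43171019-43171318, both on the plus strand and both holding the first bases of the gene. Capitals mark the CArG boxes.
EGR1: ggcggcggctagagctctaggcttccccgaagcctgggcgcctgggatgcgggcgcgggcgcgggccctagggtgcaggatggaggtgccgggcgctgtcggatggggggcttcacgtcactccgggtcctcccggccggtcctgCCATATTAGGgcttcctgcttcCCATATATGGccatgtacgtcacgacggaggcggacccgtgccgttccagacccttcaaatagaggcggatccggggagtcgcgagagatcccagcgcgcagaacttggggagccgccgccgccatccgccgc
SRF: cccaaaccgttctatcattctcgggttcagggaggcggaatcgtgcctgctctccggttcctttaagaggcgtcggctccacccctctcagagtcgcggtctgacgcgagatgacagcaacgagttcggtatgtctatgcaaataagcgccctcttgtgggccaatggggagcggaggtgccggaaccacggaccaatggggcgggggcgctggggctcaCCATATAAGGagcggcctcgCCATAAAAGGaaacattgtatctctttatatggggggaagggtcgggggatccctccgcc
The EGR1 boxes began at -105 and -83 from the start, with a match to GGAA, the core of ETS sites, between them at -93, read as ttcc on the strand shown, and another at -86 whose last base is the first base of the second box. The SRF boxes began at -30 and -10. A CArG box on either strand was found in 2 of the 8 windows and in 1.22% of 14896 protein-coding promoter windows of the same length. GGAA was found on either strand in 8 of 8 windows, but also in 95.2% of all windows, and the longer CCGGAA, which contains it, in 4 of 8 and in 23.1% of all. GCGGGGGCG or GCGTGGGCG, the site bound by EGR proteins, was found in 1 of 8 (SRF) and in 7.77% of all, and the NF-kB site likewise in SRF alone of the 8 and in 6.34% of all. TGACGTCA, the CRE, was in 0 of 8 windows and in 2.59% of all, and TATAAA in 1 of 8 (SRF) and in 9.37% of all. A letter match is a description of the window and does not show that a factor binds there.

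**Figure D2:**
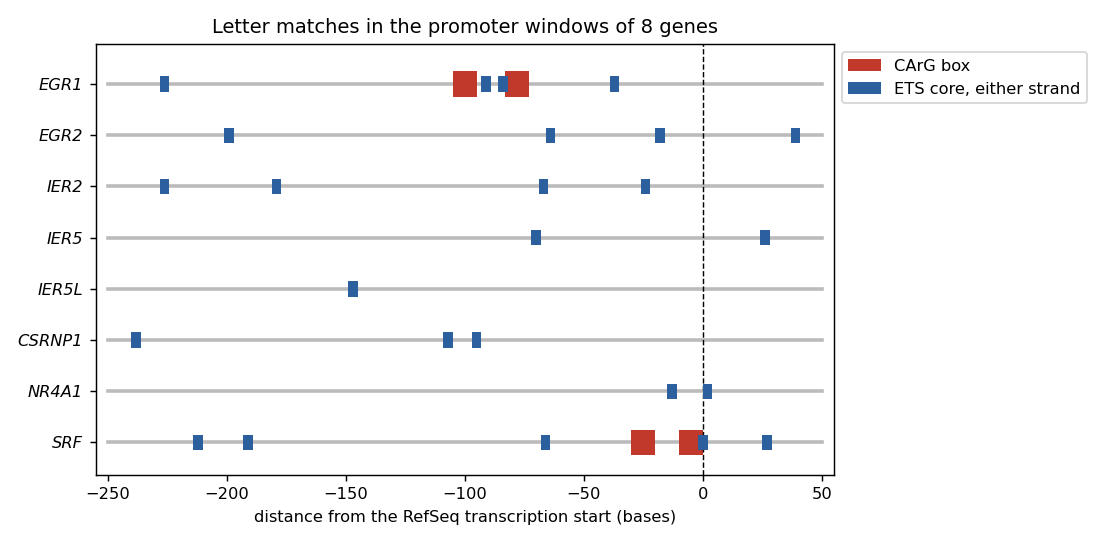
Letter matches in the promoter windows of 8 genes, by distance from the RefSeq transcription start in bases (x axis), with CArG boxes in red and GGAA on either strand in blue. Of these 8 windows, only those of EGR1 and SRF hold CArG boxes, at -105 and -83 and at -30 and -10.

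In the EGR family, EGR1 (chr5:138465490-138469315 in the deposited annotation, GRCh38) had 2, 14 and 7 reads in the DMSO samples, 4, 8 and 12 at 0.3 μM, and 76, 74 and 52 at 1 μM. The lowest sample at 1 μM was far above the highest of the other 6 samples, and DMSO and 0.3 μM overlapped. EGR1 totalled 202 reads at 1 μM against 23 in DMSO, a ratio of CPM of 8.70 with a 95% interval of 5.64 to 14.0 from counting error alone. The genes were picked on this comparison, and the interval leaves out the spread between samples, so nothing is read from its limits. EGR1 passed the count filter only in comparisons that included the 1 μM samples, where it was high. Because the DMSO level rested on so few reads, the log2 fold change was 3.82 without DMSO replicate 2, the highest of the DMSO samples, and 2.66 without DMSO replicate 1, the lowest. On the FPKM scale, the mean went from 0.138 ± 0.105 to 1.22 ± 0.209 (SD, n = 3 each), a difference of 1.08 FPKM.

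EGR2, a factor of Schwann cell and hindbrain development, had 1, 1 and 0 reads in DMSO, 0, 1 and 4 at 0.3 μM, and 3, 7 and 5 at 1 μM. Its 15 reads at 1 μM against 2 in DMSO gave a ratio of 7.43, with a counting interval of 1.73 to 67.0 and most samples at or under 3 counts. As for EGR1, nothing is read from the limits of that interval. EGR3, at 0, 0 and 0 reads in DMSO and 0, 0 and 1 at 0.3 μM, had 0, 1 and 4 at 1 μM. Most of its samples were also at or under 3 counts, and with 0 reads in DMSO no fold is given. EGR4, the paralogue outside the 10 genes, had 3 reads in 1 of 3 samples at 1 μM and 0 in the other 8 samples. Both EGR3 and EGR4 were therefore at or near the limit of detection in this cell line at every dose. The co-repressors NAB1 and NAB2 were not called at 1 μM by edgeR, with log2 fold changes of -0.08 ± 0.07 (adjusted p = 0.479) and -0.05 ± 0.07 (adjusted p = 0.682), 0 of 2 with an unadjusted p under 0.05 (32.6% of the protein-coding genes tested) and 0 of 2 called by DESeq2. With 2 genes and those shares, nothing is read from the count. NAB2 overlaps STAT6 on the opposite strand, and whether the counting used strand is not stated.

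NR4A1 (chr12:52022832-52059507), the orphan nuclear receptor Nur77, had 1.98, 2.31 and 2.001 FPKM in DMSO, 2.27, 2.03 and 2.88 at 0.3 μM, and 2.33, 2.42 and 2.37 at 1 μM. Its groups at 1 μM and in DMSO came close to touching, and its highest sample was at 0.3 μM. Its log2 fold change at 1 μM was 0.16 ± 0.10. Its paralogue NR4A3, far less abundant, had 9, 6 and 2 reads in DMSO, 17, 8 and 7 at 0.3 μM and 31, 31 and 39 at 1 μM, and was higher at 1 μM by 2.53 ± 0.42 on the log2 scale (edgeR adjusted p = 0.00111, higher in 3 of 3 samples). NR4A2 had 26 to 36 reads in DMSO and 34 to 43 at 1 μM, with a log2 fold change of 0.27 ± 0.27 (edgeR adjusted p = 0.533, 95% interval -0.26 to 0.79). Among 4 paralogues that passed the filter at 1 μM, NR4A3 was the only gene called, beside 1.56% of the protein-coding genes called higher and 2.36% called lower, and the differences between the paralogues were not tested. NR4A3 passed the count filter only in comparisons that included the 1 μM samples, so its call rests on the group where it was high.

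**Figure D3:**
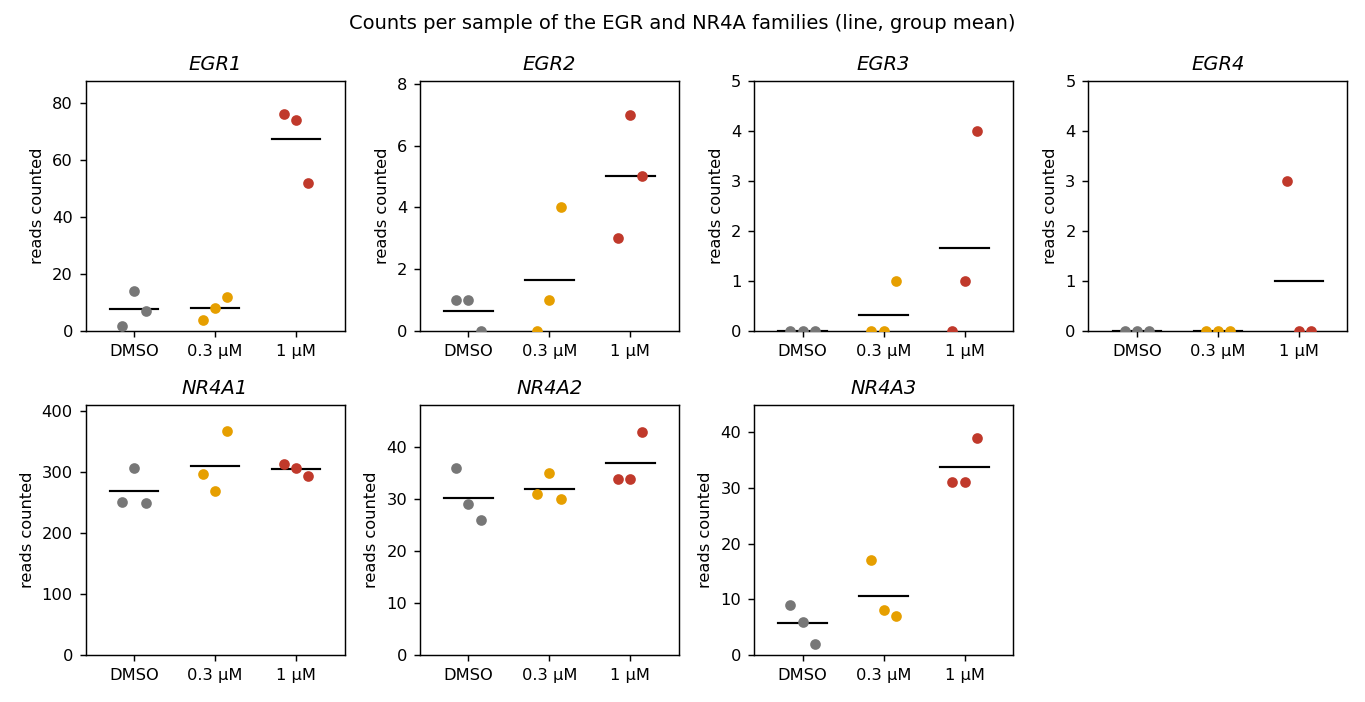
Reads counted (y axis, linear from 0, a scale of its own in each panel) for 4 EGR and 3 NR4A genes in each of 9 samples by treatment, with points for samples and lines for means of 3. EGR1 at 52 to 76 reads and NR4A3 at 31 to 39 reads at 1 μM stood above all DMSO samples, while EGR3 and EGR4 stayed between 0 and 4 reads.

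CSRNP1 (chr3:39141855-39154562), a nuclear protein known as induced by AXIN1, had groups of values that lay apart in CPM. Its level was 4.06, 4.01 and 4.03 FPKM in DMSO, 5.02, 4.58 and 5.33 FPKM at 0.3 μM and 6.55, 6.83 and 6.31 FPKM at 1 μM. The 3 groups did not overlap. The log2 fold change was 0.30 ± 0.11 from DMSO to 0.3 μM, which did not pass the test (edgeR adjusted p = 0.995, with groups apart in that direction in 4.03% of the protein-coding genes), and 0.40 ± 0.10 from 0.3 μM to 1 μM. The paralogue CSRNP2 was at 0.20 ± 0.07 at 1 μM (edgeR adjusted p = 0.0665) and CSRNP3 at -0.01 ± 0.18 (edgeR adjusted p = 0.974), neither of them called.

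Of the IER genes, IER3 (chr6:30743199-30744554), a regulator of cell survival also called IEX-1, showed the largest difference in FPKM of the 10 genes. It had 67.8, 54.2 and 58.8 FPKM in DMSO, 63.4, 62.4 and 84.8 FPKM at 0.3 μM and 118.0, 113.2 and 118.5 FPKM at 1 μM. The samples at 1 μM were all above the other 6 samples, and of the 0.3 μM samples only replicate 3 exceeded all of DMSO. The mean difference between 1 μM and DMSO was 56.3 FPKM for IER3 against 1.08 FPKM for EGR1, though the log2 fold changes were 0.93 and 3.09. Summed over the 10 genes, the level was 109.1 to 134.4 FPKM in DMSO, 125.2 to 156.3 FPKM at 0.3 μM and 189.5 to 195.4 FPKM at 1 μM, of which IER3 made 48.3% to 50.5% in DMSO and 57.9% to 62.3% at 1 μM.

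The other IER genes differed far less between doses. IER5, which is known to act on the heat shock factor HSF1, had 17.1, 13.5 and 15.8 FPKM in DMSO and 18.1, 20.8 and 18.2 FPKM at 1 μM, a log2 fold change of 0.28 ± 0.09. Its relative IER5L had 10.9, 7.99 and 9.90 FPKM in DMSO and 11.7, 12.1 and 11.0 FPKM at 1 μM, a log2 fold change of 0.26 ± 0.10. IER2, a nuclear protein of early transcription, had 8.61, 7.18 and 8.40 FPKM in DMSO and 8.81, 10.9 and 8.87 FPKM at 1 μM, a log2 fold change of 0.22 ± 0.10. In these 3 genes, the lowest sample at 1 μM was just above the highest DMSO sample. SRF (chr6:43171299-43181507), the factor that binds CArG boxes, had 23.8, 19.6 and 22.8 FPKM in DMSO, 22.9, 21.7 and 28.2 FPKM at 0.3 μM and 22.6, 27.7 and 24.3 FPKM at 1 μM. Its groups overlapped at both doses, and its log2 fold change at 1 μM was 0.16 ± 0.09.

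The samples of a group differed in the same way in several of the genes. Among the 8 genes that passed the filter at 1 μM, DMSO replicate 1 was the highest DMSO sample in 6, 0.3 μM replicate 3 the highest of its group in 6 and 1 μM replicate 2 the highest of its group in 7. The part of these samples in the differences between genes was not tested.

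The comparison of 0.3 μM with DMSO addresses the lower dose, and shares the DMSO samples with the comparison that the genes were picked on. None of the 7 genes that passed the filter was called by edgeR's quasi-likelihood test at an adjusted p under 0.05 and over 1.5-fold (0 of 7, every adjusted p = 0.995), beside 0% of 12907 protein-coding genes called higher; DESeq2 called 0 of the 7 as well. An unadjusted p under 0.05 was reached by 1 of 7 genes, CSRNP1 (unadjusted p = 0.0167 in edgeR's fit), and by 3.3% of the protein-coding genes. Of the 10 genes, 1 had groups that did not overlap, again CSRNP1, beside 4.03% of the protein-coding genes with 0.3 μM the higher. IER3 was at 0.22 ± 0.11 and NR4A1 at 0.19 ± 0.13 on the log2 scale, each with overlapping groups. For EGR1, which missed the filter here, 24 reads at 0.3 μM against 23 in DMSO gave a ratio of 1.02 (counting interval 0.553 to 1.90; exact two-sided permutation test on CPM, p = 0.9, where the smallest p this design allows is 0.1). The interval does not cover the spread between samples, whose reads ranged from 2 to 14 in DMSO and from 4 to 12 at 0.3 μM.

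Between the doses, EGR1 was 3.07 ± 0.34 (log2, n = 3 and 3) higher at 1 μM than at 0.3 μM, IER3 0.73 ± 0.09 and CSRNP1 0.40 ± 0.10. IER5 was 0.26 ± 0.07 higher and IER5L 0.20 ± 0.09 higher, IER2 was at 0.16 ± 0.10, while NR4A1 at -0.01 ± 0.12 and SRF at 0.03 ± 0.09 were close to 0. In 5 of the 10 genes the groups did not overlap, beside 17.6% of the protein-coding genes tested with 1 μM the higher. These samples at 1 μM are the ones that the genes were picked on, and no test is given.

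**Figure D4:**
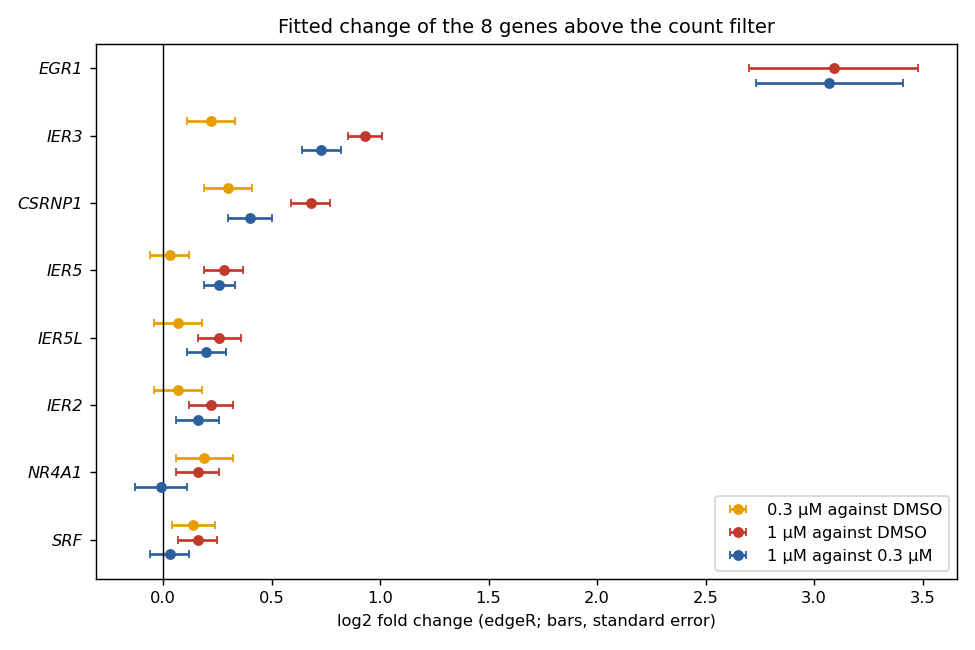
Log2 fold change (x axis) with its standard error (bars) from edgeR for the 8 genes above the count filter, for 3 comparisons of 3 samples each. EGR1 stands at 3.09 at 1 μM against DMSO and 3.07 against 0.3 μM and was not fitted at 0.3 μM against DMSO, where the other 7 lie between 0.03 and 0.30.

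Other immediate early genes were read from a list of 44, of which 43 passed the filter. The list was chosen with earlier results of these data known, so its counts and median are not independent of them. At 1 μM, 11 of 43 rose and 0 fell at an adjusted p under 0.05 and over 1.5-fold (edgeR), beside 1.56% of protein-coding genes called higher and 2.36% called lower. The median log2 fold change over the 43 was 0.38, against 0.01 over all protein-coding genes tested. VGF, a precursor of secreted peptides, rose by 1.29 ± 0.11 (edgeR adjusted p = 1.44e-05). HES1, a transcriptional repressor that acts downstream of Notch, rose by 1.03 ± 0.25 (edgeR adjusted p = 0.0126). The AP-1 subunit FOS rose by 0.98 ± 0.22 (edgeR adjusted p = 0.00719). Each of these genes was higher in 3 of 3 samples. FOS had 51, 34 and 38 reads in DMSO and 74, 88 and 85 at 1 μM. The other genes called were RHOB, JUNB, FOSL1, SGK1, KLF10, DUSP1, MAFF and TRIB1, at 0.60 to 0.90 on the log2 scale. Without the fold cutoff, 20 were higher and 3 lower, beside 9.13% and 8.99% of the protein-coding genes. The 3 lower ones, named after their values were seen, were CYR61, PLK2 and GADD45A. HES1 missed the threshold without DMSO replicate 3 (edgeR adjusted p = 0.0538) and without 1 μM replicate 1 (adjusted p = 0.05001). At 0.3 μM, edgeR and DESeq2 each called 0 of the 43, and 4 had an unadjusted p under 0.05, beside 3.3% of the protein-coding genes.

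**Figure D5:**
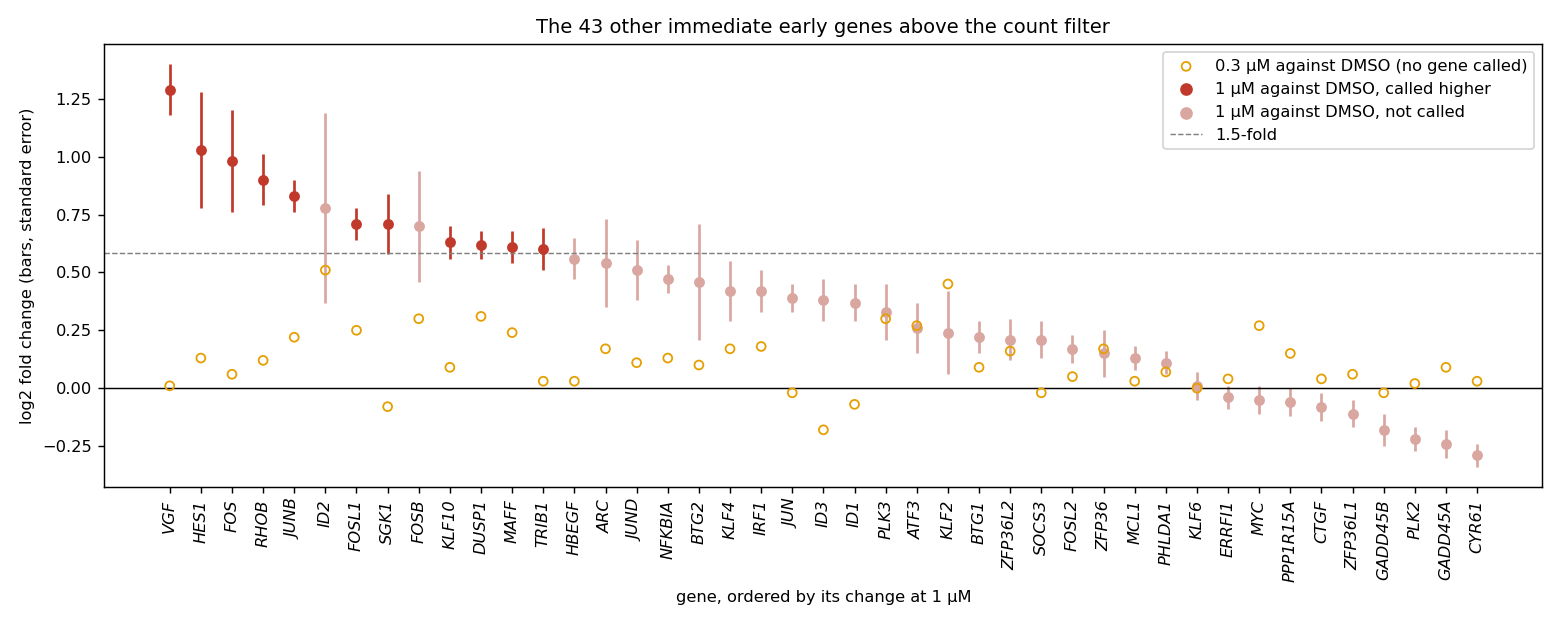
Log2 fold change (y axis) of the 43 other immediate early genes above the count filter (x axis, ordered by the change at 1 μM), with filled points and standard errors for 1 μM against DMSO and open points for 0.3 μM against DMSO. The 11 dark red genes, VGF at 1.29 down to TRIB1 at 0.60, were called higher, and no gene was called at 0.3 μM.

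The factors that act upstream of these genes were measured at the transcript level too. Of 5 SRF cofactors above the filter, 0 were called at 1 μM by edgeR or DESeq2, and 2 had an unadjusted p under 0.05, as did 32.6% of the protein-coding genes tested. By edgeR, 1.56% of those genes were called higher and 2.36% lower. With shares this small, nothing is read from 0 calls in this list or in the short lists that follow. Among the ELK proteins, the ETS partners of SRF, ELK1 was at 0.15 ± 0.09 (edgeR adjusted p = 0.274), ELK3 at 0.17 ± 0.06 (adjusted p = 0.044, under 1.5-fold) and ELK4 at -0.04 ± 0.07 (adjusted p = 0.712). Of 19 genes of the ERK cascade, 0 were called by edgeR or DESeq2 and 3 had an unadjusted p under 0.05; the GTPase gene NRAS, named after its values were seen, was 0.41 ± 0.06 higher (edgeR adjusted p = 0.000601, 1.33-fold). Of 8 factors that bind AU-rich elements, through which short-lived mRNAs are degraded or silenced, 0 were called by edgeR or DESeq2 and 3 had an unadjusted p under 0.05. TIA1 at -0.46 ± 0.08 (edgeR adjusted p = 0.00114) and TIAL1 at -0.39 ± 0.08 (adjusted p = 0.0041), both named after their values were seen, were lower by less than 1.5-fold. At 0.3 μM, 0 genes of these 3 lists, the paralogues and the NAB genes were called by edgeR or DESeq2, and 2 of them, both among the factors that bind AU-rich elements, had an unadjusted p under 0.05, beside 3.3% of the protein-coding genes at this dose. Transcript levels carry no measure of ERK activity.

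By profile over the 9 samples, taken as log2(CPM + 0.5) relative to the DMSO mean, the genes most like EGR1 among 14164 compared were STC1, a secreted glycoprotein hormone, CCL20, a chemokine, HIST1H2BC, an H2B histone gene with near-identical copies and so uncertain, IL1B, the interleukin, and EREG, a ligand of the EGF receptor. Their root mean square differences from EGR1 were 0.47, 0.54, 0.55, 0.61 and 0.62. IER3 ranked 31 and CSRNP1 84 by this measure, EGR2 182, and SRF 3297, but with its 0 to 7 reads EGR2 ranked 2265 with an offset of 2 CPM. STC1 had 49, 71 and 49 reads in DMSO, 78, 85 and 52 at 0.3 μM and 287, 184 and 192 at 1 μM. IL1B had 145, 135 and 122 reads in DMSO, 282, 167 and 151 at 0.3 μM, and 627, 435 and 418 at 1 μM. As for EGR1, their samples at 1 μM were all above the other 6. The genes were picked for likeness to EGR1 over these same samples, so nothing is read from that. With an offset of 2 CPM, 2 of these 5, EREG and HIST1H2BC, were again among the nearest 5.

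The gene models of the 10 genes (GENCODE v44 canonical transcripts) were compact. Of the 10, 7 (all but CSRNP1, NR4A1 and SRF) have 1 or 2 exons, as do 6.79% of the protein-coding genes tested. The median span was 5162 bases against 33810 bases, and 9 of the 10, all but NR4A1, lay below the lower quartile of 13750 bases. The counts rest on the deposited annotation, which differs for EGR2: it runs there from 62811996 to 62919900 on chromosome 10, far longer than the 7172 bases of the model used here. ATTTA, the core of AU-rich elements, occurred at a median of 1.99 per kilobase of 3′ UTR against 1.73 over the genes tested. IER3 had 6 in a 3′ UTR of 737 bases, or 8.14 per kilobase, a density reached by 1.9% of the genes tested, and IER2 had 0. EGR1 had 1 in 1222 bases, or 0.82 per kilobase, which 66.0% of genes reached.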

How the data were processed

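Polyadenylated RNA of 9 KHM-5M samples was sequenced. The authors aligned reads to GRCh38; the submitters' processing notes name HISAT2 2.0.5, featureCounts 1.5.0-p3 and DESeq2 1.20.0, while the study's methods name HTseq for counting. Whether counting used strand is not stated. The methods state 2 biological replicates per condition, whereas the labels list 3 samples per group, and all 3 were used. The deposited counts are whole reads per gene, and the deposited FPKM values divide them by gene length and library size. The deposited fold changes and p-values were not used. Some marker genes are not reported here. The 10 genes and all lists were chosen with earlier results of these data known.

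Counts were fitted for each pair of groups with edgeR 4.0.16 (glmQLFit, glmQLFTest, TMM) in R 4.3.3 after filterByExpr with a minimum count of 10, with Benjamini-Hochberg adjustment over all genes tested (15762 at 0.3 μM against DMSO and 15617 at 1 μM against DMSO). Calls needed an adjusted p under 0.05, over 1.5-fold and a protein-coding gene. DESeq2 1.42.0 was an alternative. SE is the log2 fold change over the square root of F. CPM used TMM library sizes. Motifs were searched on both strands; CCGGAA and TATAAA were added after the values were seen. The fits were tried on simulated counts, with the same setting for the spread between samples in every gene. Changes were planted only in genes above a minimum mean count. The simulation therefore says nothing on genes with few reads, such as EGR2 and EGR3.

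The genes named are the 10 members, their paralogues, NAB1, NAB2 and ELK genes, the called genes of each other list (at most the 3 largest rises and falls with values) and the 5 genes outside the 10 with at least 1 CPM most like EGR1. The alternatives tried were no filter, DESeq2, size factors by RLE, all 9 samples in 1 fit, a replicate block, a prior count of 2, each sample left out, no fold cutoff and the unadjusted p. Depth was 16903251 to 18238884 counts per sample, and intervals cover counting error only.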

Additional observations from a re-analysis of the deposited data

How the results depend on the processing

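The log2 fold change of EGR1 at 1 μM against DMSO ranged from 2.66 to 3.82 as single samples were left out, and against 0.3 μM from 2.75 to 3.49. The low DMSO and 0.3 μM counts make this value the least precise of the 8 fitted genes. Without the fold cutoff, the other immediate early genes called at 1 μM went from 11 to 20 higher and from 0 to 3 lower, the SRF cofactors from 0 to 1, the ERK cascade from 0 to 1 and the factors that bind AU-rich elements from 0 to 2, since small changes then count. With each sample left out, 9 to 14 other immediate early genes were called higher. By CPM in place of FPKM, 4 of the 10 genes changed place in the DMSO order, and with an offset of 2 CPM 2 of 5 genes most like EGR1 were shared. At 0.3 μM, the log2 fold change of IER2 turned to -0.0035 without DMSO replicate 2 and -0.0016 without 0.3 μM replicate 1, IER5 to -0.05 without DMSO replicate 2 and -0.01 without 0.3 μM replicate 3, and IER5L to -0.05 without DMSO replicate 2, with no call before or after; the highest values with a sample left out were 0.13, 0.11 and 0.17. The labels do not say whether the replicate numbers pair the samples. Deviations of same-numbered samples correlated at -0.022 to 0.082 over 16124 genes, and of differently numbered samples at -0.069 to 0.038. Between DMSO and 0.3 μM, same-numbered samples were at 0.02 to 0.082 and the others at -0.069 to 0.006. All these values are small, and whether the samples were paired is not settled by them. With the replicate block, EGR1 was at 3.13 at 1 μM against DMSO, and no listed count moved by over 1.5 times. EGR2 and EGR3 are limited by depth, at 0 to 7 reads per sample.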
